A study of Mus musculus with 6 samples.

Results

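Muscle fibres contract when calcium leaves an internal store, and they relax when it is pumped back. The genes described here encode 10 parts of that machinery: the release channel Ryr1, the calcium pumps Atp2a1 and Atp2a2 with the small pump regulator Sln, the store proteins Casq1 and Casq2, the voltage sensor Cacna1s with its adaptor Stac3, the junction protein Jph1 and the soluble calcium buffer Pvalb. They were chosen by gene symbol from a list, and all 10 were found among the 33919 genes of the deposited table. The table holds 6 mouse libraries labelled as aorta, 3 labelled WT and 3 labelled KO, and all 6 are labelled as treated with Ang II (angiotensin II, a peptide that raises blood pressure). The series title names OTUD1, a deubiquitinase, in endothelium, but the sources used here do not give the construct behind the KO label, the promoter of any Cre, the strain, the age or sex of the mice, or the dose and length of the treatment. The design text speaks of 3 mice per group without identifying them, so the tests measure how far these libraries scatter, which may be technical. The extraction text speaks of an adipose sample type, which the tissue label does not.

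In excitation-contraction coupling, an action potential runs down the transverse tubules of a skeletal fibre and moves the voltage sensor, which opens the release channel of the neighbouring sarcoplasmic reticulum by direct contact. Calsequestrins hold calcium inside the reticulum, parvalbumin binds it in the cytosol of fast fibres, and pumps of the SERCA family return it. Fast fibres use Atp2a1 and Casq1, slow and cardiac muscle use Atp2a2 and more Casq2, and smooth muscle of an artery relies on Atp2a2, the channel pore Cacna1c and other release channels.

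The libraries held 62.3 M to 71.5 M counts each. Mitochondrial genes made up 55.7% to 57.8% of them in the WT-labelled libraries and 50.5% to 53.3% in the KO-labelled ones. Without these genes and their nuclear copies, 17.3 M to 19.4 M counts remained under the WT label and 23.0 M to 23.4 M under the KO label. On the deposited FPKM scale the median log2 change over all genes tested was 0.11 (limma). The FPKM values below thus include a general shift towards the KO label. Otud1 had 593, 699 and 615 counts in the WT-labelled libraries and 1033, 1141 and 1223 in the KO-labelled ones, which was higher and not lower (log2 change 0.63, edgeR's adjusted p = 0.0039), so groups are named by their labels throughout. Markers of arterial smooth muscle were present at a summed 511 to 514 CPM (counts relative to library size, TMM-scaled) in the WT-labelled libraries, against 16797 to 17322 CPM for 10 contractile genes of fast skeletal fibres. Skeletal muscle transcripts thus far exceeded those of the labelled tissue's own muscle cells.

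Of the 10 calcium handling genes, 8 were higher in the KO-labelled libraries, 1 was lower and 1 did not pass the test (edgeR's quasi-likelihood test, adjusted p under 0.05 over 16620 genes). Over all genes tested 11.5% were higher and 10.5% lower, or 22% in either direction. The median log2 change was 0.47 for these genes and -0.02 for all genes tested. Stac3 and Atp2a1 rose most, and Pvalb was the one that fell. The directions of Ryr1, Cacna1s and Atp2a2 depended on the scaling, as set out further on. In CPM the groups did not overlap for 9 of the 10 genes, against 38.6% of all genes tested. All 10 passed the filter on low counts, and the lowest count of any of them was 669, for Stac3.

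The sequence upstream of 4 genes is shown for their contrast: Atp2a1, the pump that rose, Pvalb, which fell, and the calsequestrins Casq1 and Casq2, which rose together although they belong to different fibre types. RefSeq's promoter table (GRCm38.p6) matched 6 of the 10 genes. Each line runs 5′ to 3′ up to the RefSeq start, or to the first annotated base of the gene where that lies further upstream. Capitals mark E-boxes (CANNTG, bound by MyoD-type factors) and matches to the MEF2 site, both searched on both strands.
Atp2a1, chr7:126463109-126463323, minus strand: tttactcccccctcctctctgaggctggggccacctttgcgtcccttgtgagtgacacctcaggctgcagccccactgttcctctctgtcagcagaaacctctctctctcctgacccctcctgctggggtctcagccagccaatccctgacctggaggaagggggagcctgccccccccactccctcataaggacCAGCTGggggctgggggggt
Casq1, chr1:172219896-172220145, minus strand: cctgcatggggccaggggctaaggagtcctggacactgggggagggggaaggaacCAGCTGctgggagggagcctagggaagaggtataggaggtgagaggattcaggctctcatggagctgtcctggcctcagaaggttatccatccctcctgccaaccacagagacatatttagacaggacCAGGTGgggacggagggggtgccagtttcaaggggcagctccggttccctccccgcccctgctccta
Casq2, chr3:102086165-102086414, plus strand: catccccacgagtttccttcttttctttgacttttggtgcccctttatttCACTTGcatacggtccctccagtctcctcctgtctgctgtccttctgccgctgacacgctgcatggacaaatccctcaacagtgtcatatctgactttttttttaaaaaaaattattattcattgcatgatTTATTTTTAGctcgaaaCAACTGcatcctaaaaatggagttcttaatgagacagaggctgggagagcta
Pvalb, chr15:78206401-78206650, minus strand: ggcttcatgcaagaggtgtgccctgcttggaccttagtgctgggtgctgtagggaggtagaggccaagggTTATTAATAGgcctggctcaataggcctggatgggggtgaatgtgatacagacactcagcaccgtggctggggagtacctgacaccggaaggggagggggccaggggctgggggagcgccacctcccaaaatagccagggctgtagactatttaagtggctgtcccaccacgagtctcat

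In the 250 bases before the RefSeq start, the E-box CAGCTG lay 55 bases upstream in Atp2a1, 195 in Casq1 and 123 in Cacna1s. This form, which is counted among the E-boxes, was found in 13% of 32851 windows of the same length, and any CANNTG in 66.2%. Casq2 held 2 E-boxes of other letters, and Pvalb and Ryr1 held none. A MEF2 site occurred in Casq2 and Pvalb, 69 and 180 bases upstream, and in 1.69% of all windows. These matches describe letters and are not evidence of binding.

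Atp2a1 encodes SERCA1, the calcium pump of fast fibres (ENSMUSG00000030730, chromosome 7, 126445858 to 126463108, minus strand, GRCm38). Its deposited FPKM, a level per gene length, was 229.7, 219 and 250.3 in the WT-labelled libraries and 485, 447 and 429 in the KO-labelled ones. The 3 libraries of the second group all lay well above the first. On the TMM scale the pump was 1.75-fold higher (log2 change 0.81, SE 0.03, adjusted p = 2.6e-08), and it ranked 39 by FPKM among 33882 genes outside the mitochondrial genome.

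Atp2a2 encodes SERCA2, the pump of slow fibres, heart and smooth muscle (ENSMUSG00000029467, chromosome 5, 122453513 to 122502174, minus strand). Its FPKM was 22.9, 23.0 and 23.0 in the WT-labelled libraries and 24.6, 24.9 and 23.7 in the KO-labelled ones, a small step without overlap. In TMM-scaled counts the groups overlapped, at 163 ± 7.62 and 155.6 ± 4.77 CPM (SD, n = 3 each). The log2 change was -0.07 (SE 0.05, adjusted p = 0.39), and its sign turned on the FPKM scale. The table gives 1 value for the gene, so its muscle and widely expressed splice forms were not separated.

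Sln encodes sarcolipin, a peptide of the reticulum membrane that inhibits SERCA pumps (ENSMUSG00000042045, chromosome 9, 53850164 to 53854560, plus strand). Its FPKM was 23.4, 24.3 and 24.99 in the WT-labelled libraries and 44.1, 37.1 and 33.8 in the KO-labelled ones. All 3 KO values were above all WT values, with a wider spread in the KO group. Sln was 1.42-fold higher (log2 change 0.51, SE 0.08, adjusted p = 0.0012).

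Cacna1s encodes the pore subunit of the skeletal L-type calcium channel, which acts as the voltage sensor (ENSMUSG00000026407, chromosome 1, 136052750 to 136119535, plus strand). Its FPKM was 21.7, 19.6 and 22.4 in the WT-labelled libraries and 32.0, 27.4 and 27.0 in the KO-labelled ones. The groups did not overlap, and the log2 change was 0.29 (SE 0.05, adjusted p = 0.0023).

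Stac3 encodes an adaptor that the skeletal voltage sensor needs to reach the membrane and to couple to the release channel (ENSMUSG00000040287, chromosome 10, 127501686 to 127508823, plus strand). Its FPKM was 3.34, 3.95 and 4.49 in the WT-labelled libraries and 9.87, 9.74 and 9.65 in the KO-labelled ones. The KO libraries were nearly equal to each other and all above the WT libraries. With 2.24-fold it had the largest change of the 10 genes on the TMM scale (log2 change 1.16, SE 0.11, adjusted p = 2.3e-05).

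Ryr1 encodes the skeletal release channel (ENSMUSG00000030592, chromosome 7, 29003344 to 29125152, minus strand). Its FPKM was 23.4, 22.5 and 25.3 in the WT-labelled libraries and 30.5, 29.2 and 27.9 in the KO-labelled ones. The groups were apart, but the step was the smallest among the genes that passed: 1.11-fold, with a log2 change of 0.15 (SE 0.03, adjusted p = 0.0044). Jph1 encodes junctophilin 1, which ties the transverse tubule to the reticulum (ENSMUSG00000042686, chromosome 1, 16964560 to 17097889, minus strand). Its FPKM was 2.80, 2.53 and 2.75 in the WT-labelled libraries and 4.33, 4.17 and 3.89 in the KO-labelled ones, again without overlap (1.38-fold higher, adjusted p = 0.0027).

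Casq1 encodes the main calcium buffer inside the reticulum of fast fibres (ENSMUSG00000007122, chromosome 1, 172209894 to 172219868, minus strand). Its FPKM was 53.8, 49.8 and 58.4 in the WT-labelled libraries and 87.3, 81.2 and 82.3 in the KO-labelled ones. All KO libraries were higher (1.40-fold on the TMM scale, log2 change 0.48, SE 0.04, adjusted p = 2.3e-05). Casq2 encodes the calsequestrin of heart and slow fibres (ENSMUSG00000027861, chromosome 3, 102086415 to 102146514, plus strand). Its FPKM was 10.6, 9.17 and 8.60 in the WT-labelled libraries and 15.8, 14.5 and 17.97 in the KO-labelled ones. Casq2 was higher as well, by 1.53-fold (log2 change 0.61, SE 0.11, adjusted p = 0.0029).

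Pvalb encodes parvalbumin, which takes up cytosolic calcium and speeds the relaxation of fast fibres (ENSMUSG00000005716, chromosome 15, 78191114 to 78206400, minus strand). Its FPKM was 578, 545 and 607 in the WT-labelled libraries and 414, 357 and 347 in the KO-labelled ones. Every KO library was below every WT library. In TMM-scaled counts it went from 698 ± 7.68 to 406 ± 24.7 CPM (SD, n = 3 each) and was 1.72-fold lower, with a log2 change of -0.78 (SE 0.04, adjusted p = 5e-07). Pvalb is a gene of fast fibres. With TMM scaling it fell in libraries where 7 of 10 fast-fibre contractile genes rose and 0 fell. In the same libraries 7 of 10 slow-fibre contractile genes fell and 2 rose. The median log2 change of the fast-fibre genes was 0.41, below the 0.62 of 10 genes that all fibre types share. By these medians the fast-fibre list rose less than the shared muscle genes, but its members ranged more widely. They ran from 0.007 (Tnnc2) to 1.43 (the fast myosin Myh4), against 0.09 to 0.94 for the shared genes. The difference between the lists was not tested.

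**Figure D1:**
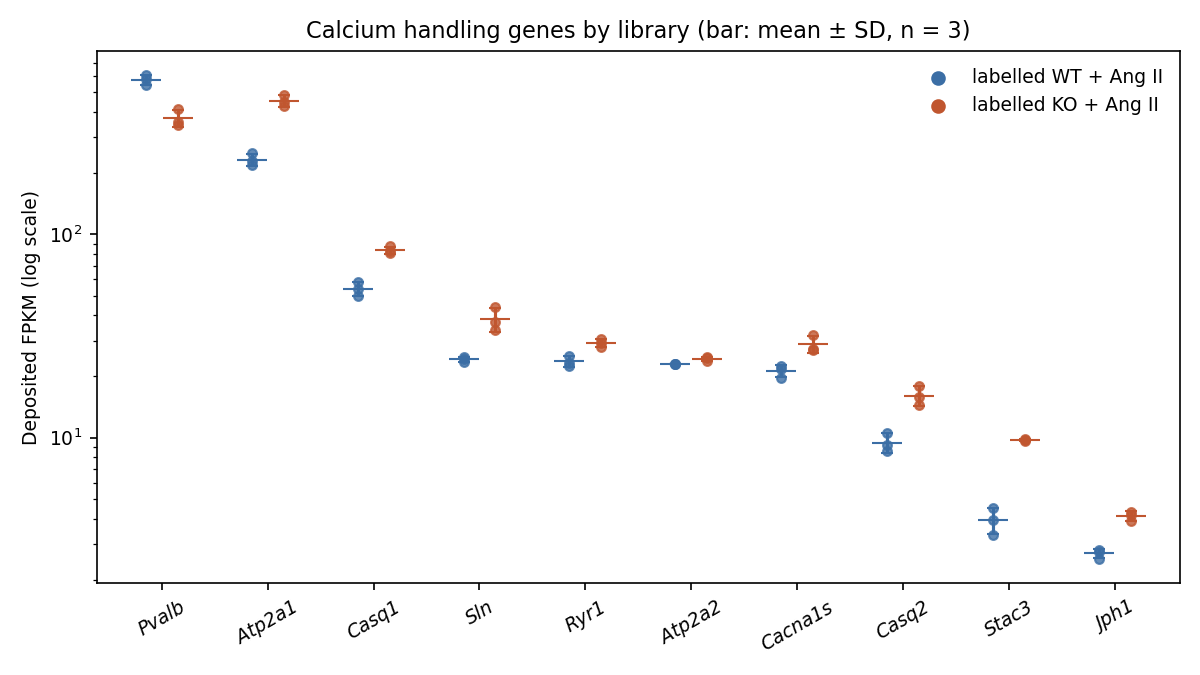
Deposited FPKM (log axis) of the 10 calcium handling genes in each library, with points for libraries and bars for the group mean and SD (n = 3). Pvalb is lower in every library labelled KO, Atp2a1 is above Pvalb only in that group, and the other genes lie above the WT values by varying amounts.

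The order of levels per gene length was much alike in both groups, apart from the leading pair. In the WT-labelled libraries it ran Pvalb, Atp2a1, Casq1, Sln, Ryr1, Atp2a2, Cacna1s, Casq2, Stac3 and Jph1. The values of Sln and Ryr1 overlapped there, as did those of Ryr1 and Atp2a2, so these neighbours were not ordered beyond their spread. In the KO-labelled libraries Atp2a1 came first, and Cacna1s stood before Atp2a2, with Ryr1 and Cacna1s overlapping. The ratio of Atp2a1 to Pvalb by FPKM was 0.397, 0.402 and 0.412 in the WT-labelled libraries and 1.17, 1.25 and 1.24 in the KO-labelled ones. The pump thus passed the buffer in each KO library and in no WT library.

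This ratio and 4 others between the 10 genes were chosen after their values were seen. Ratios within a library do not depend on how libraries are scaled. For each of the 5 the exact two-sided permutation test gave p = 0.1, the smallest that 3 libraries against 3 allow, and 0.113 after adjustment over 17 ratios. The adjustment does not cover how the 5 were picked. Stac3 relative to Cacna1s was 0.185 ± 0.0271 by FPKM in the WT-labelled libraries and 0.340 ± 0.0276 in the KO-labelled ones (SD, n = 3 each), so the adaptor gained on its channel. Ryr1 relative to Cacna1s was 1.12 ± 0.0334 and 1.02 ± 0.0570, a far smaller shift in the opposite direction. Casq1 and Sln relative to Atp2a1 were also lower in the KO-labelled libraries, at 0.185 ± 0.00644 against 0.232 ± 0.00377 for Casq1 and 0.0843 ± 0.00617 against 0.104 ± 0.00591 for Sln. The groups did not overlap in any of these ratios. Since the 5 were picked with their values known, neither this nor the p is support. No share without overlap was computed over all ratios.

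How the libraries were scaled set part of the result. Genes that all fibre types share (Ttn, Neb, Ckm and 7 others) were also higher: 9 of 10 passed, with a median log2 change of 0.62, and their summed level went from 7123 to 7139 CPM in the WT-labelled libraries to 9612 to 9787 CPM in the KO-labelled ones. With libraries scaled to that sum, which moved the median of all genes to -0.47, Stac3 (0.71, edgeR's adjusted p = 0.00043) and Atp2a1 (0.36, adjusted p = 4.2e-06) were still higher. Pvalb (-1.23), Atp2a2 (-0.51), Ryr1 (-0.30) and Cacna1s (-0.16) were lower, and Casq1 (0.035), Casq2 (0.17), Sln (0.06) and Jph1 (0.02) no longer passed. Relative to the sum of those 10 transcripts, 2 of the calcium handling genes were higher, 4 lower and 4 not called. Most of that sum came from Ckm, the muscle creatine kinase (2998 CPM in the WT-labelled libraries, log2 change 0.09), and Tcap, a Z-disc protein (1870 CPM, log2 change 0.70), so the tally holds for this sum and not for muscle transcripts in general. Over all genes this scaling gave 451 higher and 6489 lower, against 1907 and 1751 with TMM, and limma on log2(FPKM + 1) gave 2792 and 912 among 11311 genes, with a median of 0.11.

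**Figure D2:**
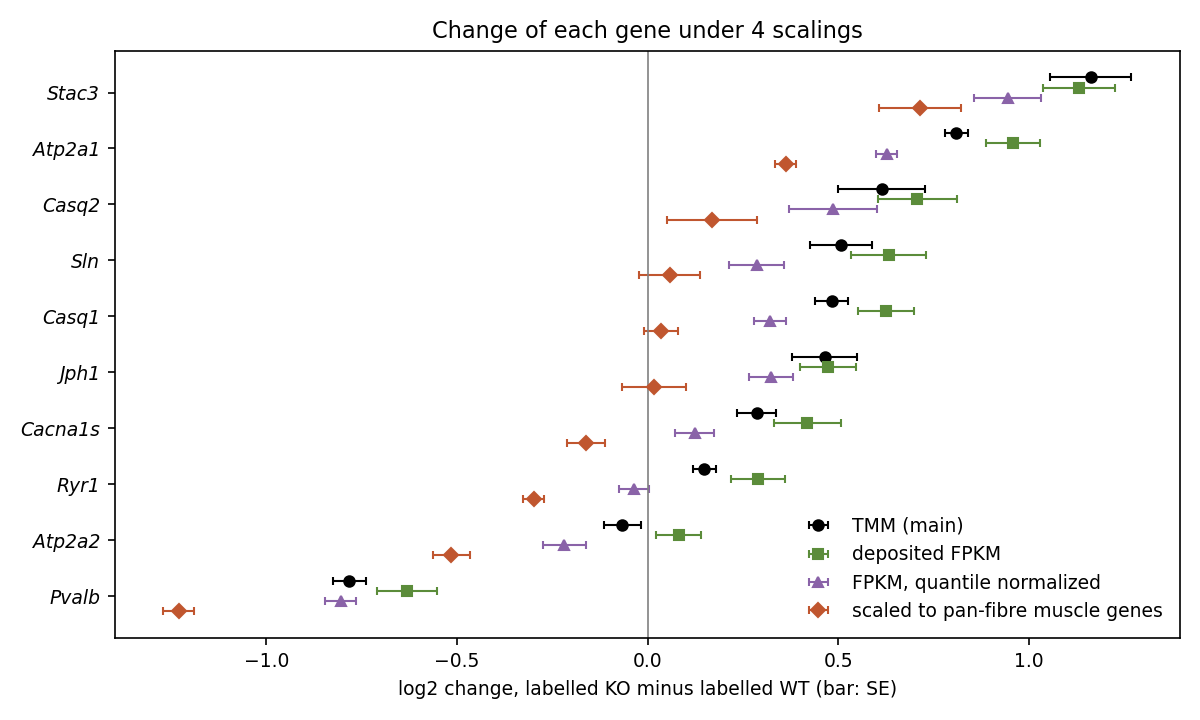
Log2 change (labelled KO minus labelled WT, with SE) of each gene with TMM scaling, on the deposited FPKM scale, after quantile normalization of FPKM and with libraries scaled to pan-fibre muscle genes. Stac3 and Atp2a1 stay above 0 and Pvalb below 0 under all 4, while Ryr1, Cacna1s and Atp2a2 lie on both sides of 0.

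Fast and slow or other-tissue forms were compared as count ratios within each library. Of 12 pairs, 10 had no overlap between groups, all with a higher ratio of the first-named form in the KO-labelled libraries. Among single genes tested 38.6% had no overlap in CPM, and no such share was computed for ratios. Each of these 10 had an exact two-sided permutation p of 0.1, the smallest possible, and 0.12 after adjustment over the 12. For the pumps, the log2 ratio of Atp2a1 to Atp2a2 was 2.52, 2.44 and 2.63 in the WT-labelled libraries and 3.49, 3.36 and 3.37 in the KO-labelled ones. The fast pump gained 1.84-fold on the slow one. The contractile pairs moved the same way, by 3.38-fold for Myh4 over Myh7, 1.75-fold for Tnnc2 over Tnnc1, 2.17-fold for Tnni2 over Tnni1 and 2.26-fold for Tnnt3 over Tnnt1. A higher ratio need not mean that the first-named form rose. Tnnc2 had a log2 change of 0.007 (edgeR's adjusted p = 0.88), while Tnnc1 fell by 0.80.

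The calsequestrins did not follow that pattern. The log2 ratio of Casq1 to Casq2 was 1.86, 1.95 and 2.27 in the WT-labelled libraries and 1.98, 2.001 and 1.71 in the KO-labelled ones, and the groups overlapped (difference -0.13, exact permutation p = 0.6). Both forms rose, so the share of each changed by less than the spread between libraries. Casq2 is also a cardiac gene. Of 11 cardiac markers in the table, 8 could be tested, with 1 higher (Sbk2) and 1 lower (Myl4), and their summed level was 30.5 to 31.9 CPM in the WT-labelled libraries and 22.3 to 34.3 CPM in the KO-labelled ones. Transcripts of some of these markers were thus detected, while Tnni3, the cardiac troponin I, had 18 to 72 counts per library. Whether heart tissue was present was not tested. Myh6, the alpha myosin heavy chain of heart, gave the most of that sum in the WT-labelled libraries, with 983, 1168 and 1072 counts there and 854, 1225 and 579 in the KO-labelled ones (adjusted p = 0.16). Tnnt2, the cardiac troponin T, had 90 to 217 counts per library. The 3 markers too low to test included Nppa, at 0 to 7 counts, and Mybpc3, at 0 to 6 counts. The part of cardiac transcripts in the Casq2 result was not tested.

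Jph1 gained 1.19-fold on Jph2, the junctophilin shared with heart, which was the more abundant form in every library. Jph2 itself was higher by a log2 change of 0.21 (adjusted p = 0.017), a call that ended when replicate 2 of the WT label (adjusted p = 0.064) or replicate 1 or 2 of the KO label (adjusted p = 0.053 and 0.081) was left out.

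The other partners are expressed in heart, smooth muscle or nerve and were scarce here. Ryr2, the cardiac release channel, had 89, 110 and 77 counts in the WT-labelled libraries and 9, 20 and 11 in the KO-labelled ones, and it fell by 2.98 on the log2 scale (adjusted p = 0.0021). Pln, the phospholamban of heart, slow fibres and smooth muscle, had 279, 273 and 280 counts and then 91, 81 and 157, and fell by 1.53 (adjusted p = 0.0024). Both were lower in each library labelled KO than in any labelled WT. The ratios of Ryr1 to Ryr2 and of Sln to Pln were accordingly 9.19-fold and 4.28-fold higher.

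Cacna1c, the L-type pore of smooth muscle and heart, had a log2 change of -0.66 (adjusted p = 0.15), and Stac, an adaptor of nerve, one of -1.62 (edgeR's adjusted p = 0.086, 0.025 without replicate 2 of the KO label, and 0.013 with DESeq2). Ryr3 had between 19 and 106 counts, and its ratio to Ryr1 overlapped between groups. Of the smooth muscle markers 7 of 8 fell, from a summed 511 to 514 CPM to 158 to 165 CPM. Myocd, one of them, was scarce, with 16, 25 and 41 counts in the WT-labelled libraries and 0 in every library labelled KO. A smaller share of smooth muscle cells in the sample, for whatever reason, and less RNA per cell cannot be told apart in bulk tissue. The part of the smooth muscle and slow-fibre markers in these ratios was not tested.

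**Figure D3:**
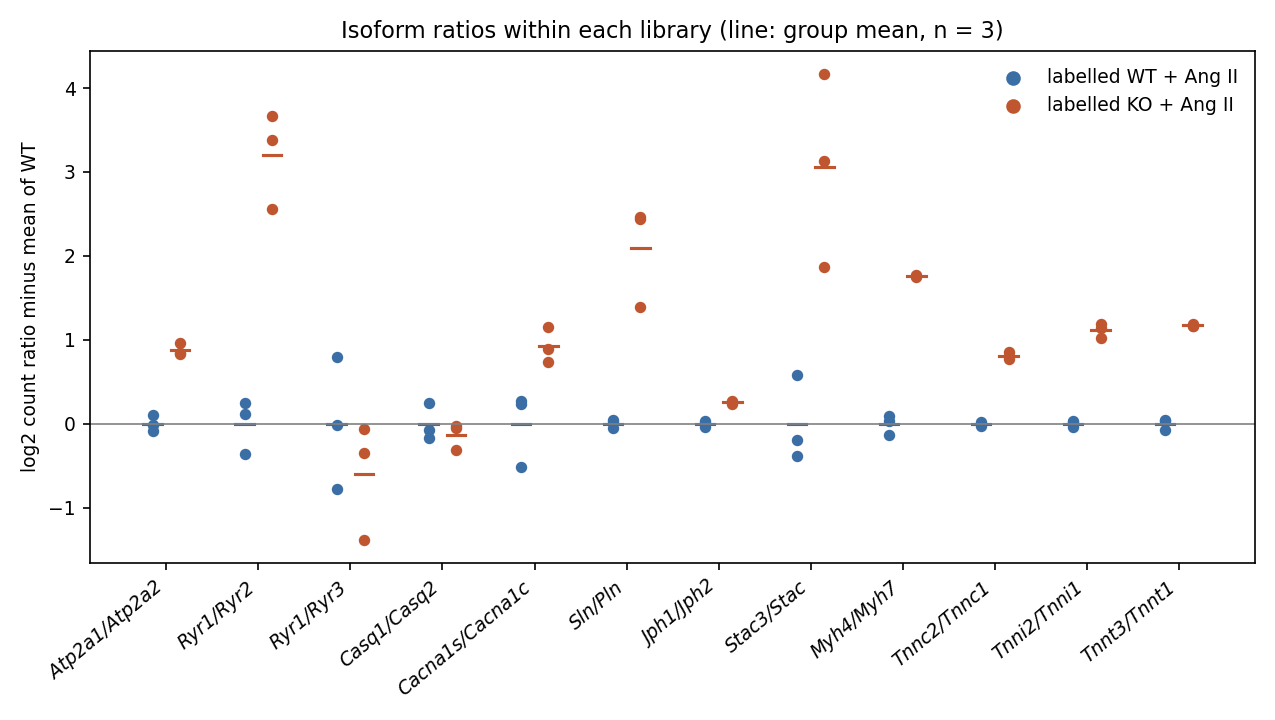
Log2 count ratio of each isoform pair in each library, set to 0 at the mean of the WT-labelled libraries. The points are libraries and the lines are group means (n = 3). In 10 of 12 pairs the groups do not overlap, while Casq1/Casq2 and Ryr1/Ryr3 do.

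The wider calcium machinery was described with 10 lists by role. Leaving out the 10 genes above, 103 of 106 listed genes were in the table and 99 could be tested. Of these 28 were higher, 18 lower and 53 did not pass, or 46.5% called against 22% of all genes, with a median log2 change of 0.06. Libraries scaled to pan-fibre muscle genes gave 12 higher and 50 lower. On the FPKM scale 9 were lower. Over the 19 alternatives tried, the number higher ran from 12 to 34 and the number lower from 9 to 50. The lists therefore moved in both directions, and which way each went differed by role.

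With TMM scaling, transcripts of the membrane excitation and triad lists that passed the test were higher, with 1 exception. In the membrane excitation list 7 of 12 genes rose and 0 fell, with a median of 0.46. That was 58.3% called, against 22% of all genes tested. Popdc3, a Popeye-domain membrane protein, rose by 1.36 on the log2 scale. In the triad list 8 of 12 genes rose and 1 fell, or 75% called. Bin1, which shapes the transverse tubules, was 2.03-fold higher (adjusted p = 9.5e-07), Tmem38a, a cation channel that balances charge during release, was 1.53-fold higher, and Sypl2 was 1.78-fold higher. The one that fell was Trdn, which encodes triadin, a partner of Ryr1 and calsequestrin, at 509 ± 21.3 and 380 ± 24.9 CPM (SD, n = 3 each). In the list of the L-type channel and voltage sensor 3 of 11 rose and 0 fell, or 27.3% called, near the 22% of all genes, with a median of -0.04. Those 3 were Cacng1 (0.86), Cacng6 (0.67) and Cacnb1 (0.56), which encode subunits of the skeletal channel. With libraries scaled to pan-fibre muscle genes Cacnb1 was at 0.12 and did not pass (adjusted p = 0.33).

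The lists around the pump and the release channel held more genes that fell than rose. Over all genes tested 10.5% were lower and 11.5% higher, or 22% called. In the list of reticulum pumps and their regulators 3 of 5 genes fell and 0 rose, or 60% called. That list also holds the pump Atp2a3 (log2 change -0.21, edgeR's adjusted p = 0.37). Mrln, which encodes myoregulin, a pump inhibitor of skeletal muscle, went from 6.15 ± 0.857 to 1.76 ± 0.607 CPM (SD, n = 3 each) and was 3.50-fold lower (adjusted p = 0.00073), the opposite of Sln. The third, besides Pln, was 1810037I17Rik (-0.41). In the list of release channels and their modulators 4 of 13 fell, among them the channel Ryr2 described above, and 1 rose. The called share of that list was 38.5%. Fkbp1a, which encodes a protein that stabilizes the closed state of Ryr1, fell by 0.62, and the calmodulin genes Calm3 and Calm2 fell by 0.58 and 0.57. The calmodulin genes are close copies in their coding parts, so how reads were shared out among them is uncertain. Many of these modulators are expressed in most cell types. All 6 fibroblast markers and 7 of 8 smooth muscle markers were lower as well, and their part in the result was not tested.

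Within the reticulum Srl, which encodes sarcalumenin, was 1.64-fold higher (adjusted p = 9.8e-07), while 3 of 6 genes of this list fell, among them the chaperone Hspa5 (-0.30, a call not made by limma on FPKM, adjusted p = 0.18). The other 2, Calr and Calu, each lost the call when any of several single libraries was left out (adjusted p up to 0.095 and 0.13). In this list 66.7% of genes were called, against 22% of all genes tested. Of 7 genes for cytosolic buffering and surface extrusion, Slc8a3, a sodium-calcium exchanger of skeletal muscle, was the one called, at 1.01 ± 0.334 and 4.004 ± 0.240 CPM (SD, n = 3 each, 3.96-fold higher, adjusted p = 0.00053). For store-operated entry 1 of 8 rose, Orai1, the channel pore of the surface membrane (1.82-fold, adjusted p = 0.0014). The called share was 14.3% of the buffering and extrusion list and 12.5% of the store-operated entry list. Both lie below the 22% of all genes tested, so neither list moved more often than genes at large. Stim1, its sensor in the reticulum, had a log2 change of 0.23 (edgeR's adjusted p = 0.095, and 0.015 with DESeq2).

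Mitochondrial calcium uptake had 4 of 9 genes higher and 1 lower, or 55.6% called against 22% of all genes tested. Letm1 and Micu2 rose by 0.67 and 0.47 (Micu2 was at 0.02, adjusted p = 0.89, with libraries scaled to pan-fibre muscle genes), and Efhd1 was 5.38-fold lower. The call of Mcu, the channel pore, was lost without any of 5 single libraries (adjusted p up to 0.099). Among calcium-dependent kinases and phosphatases 2 of 16 rose and 6 fell, or 50% called. Mylk2, the myosin light chain kinase of skeletal muscle, was 1.65-fold higher (adjusted p = 2.7e-06), and Rcan3, a regulator of calcineurin, was 2.17-fold lower (edgeR's adjusted p = 0.0047, and 0.12 by limma on FPKM without a filter). Camk2d, one of the 6, lost the call without replicate 1 of the WT label (adjusted p = 0.051).

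**Figure D4:**
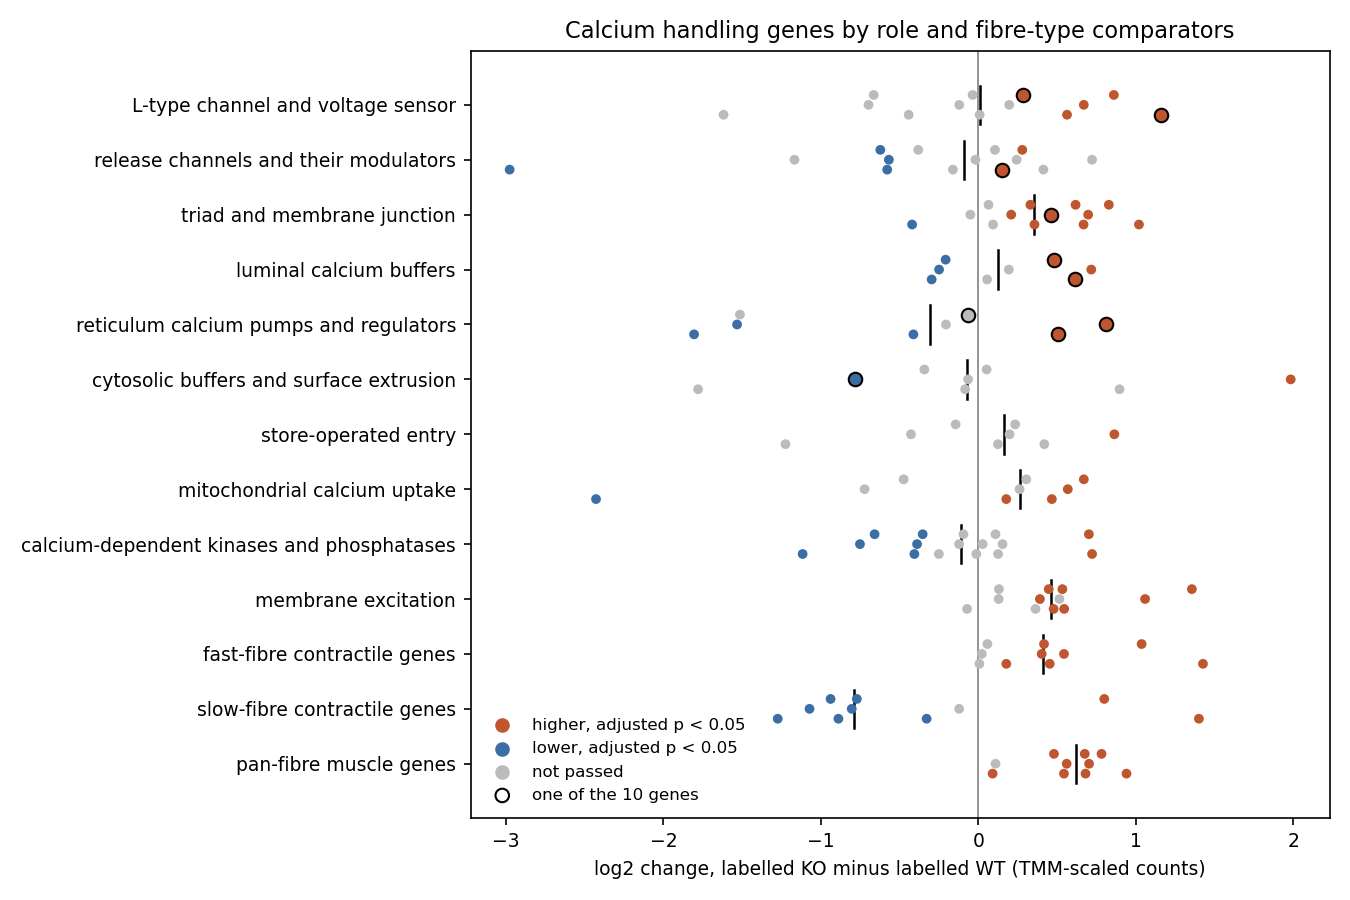
Log2 change (labelled KO minus labelled WT) of each tested gene by role, with 3 lists of fibre contractile genes for comparison. Colour marks the call, outlined points are the 10 genes, and the black bar is the list median, which is 0.46 for membrane excitation and -0.79 for slow-fibre contractile genes.

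The genes whose levels were most like those of Atp2a1 and Pvalb over the 6 libraries were taken from the 752 genes that averaged 20 FPKM or more in either group. For Atp2a1 they were Mybpc1, Tuba4a, Atp5b, Eno3 and Got1, with Pearson r from 0.9997 to 0.9998. For Pvalb they were Tnni1, Pck1, Hbb-bs, Gsn and Egfl7, with r from 0.9977 to 0.9991. Tnni1 is a gene of slow fibres, Pck1 of fat and liver metabolism and Hbb-bs of red cells. With 6 libraries in 2 separate groups these values mainly reflect the step between groups, and they are given as a description.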

How the data were processed

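RNA sequencing of 6 libraries was used, 3 labelled WT and 3 labelled KO, grouped by the genotype label. The authors deposited 1 table of whole-number gene counts, not normalized, and of FPKM values, per the file headers; no source used here says how either was computed. HISAT2 2.0 and Bowtie 0.12.2 appear, without a role, per the submitters' processing notes. Their build, mm8, is not used for positions, since the deposited coordinates equalled GENCODE mouse release 21 (GRCm38) for 85.9% of shared genes. For 3 of the 10 genes the start or end differed from that release. The counting program and its strand setting are not given.

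The test on counts was run in edgeR 4.0.16 under R 4.3.3: filterByExpr, TMM scaling, quasi-likelihood F-test on genotype, two-sided, Benjamini-Hochberg adjustment over 16620 genes. The SE is the log2 change divided by the square root of F. Alternatives were DESeq2 1.42.0, limma 3.58.1 on log2 FPKM with pseudocounts of 0.1, 0.5 and 1, other scalings and filters, a replicate block, and leaving out each library. Between 33.0% and 34.9% of counts from 1 to 40 were multiples of 4, against 25% for an even spread, so counts divided by 4 were tested as well; how this excess arose is not known. Library pairs within a group differed by 19.1 to 31.3 times counting noise (chi-square per degree of freedom), so none was a copy. The scripts were tested on simulated counts. In these 100 genes changed 1.5-fold and 100 changed 2-fold, drawn at random from all but the scarcest genes. The edgeR test recovered 19% and 60% of these, so a gene that did not pass may still have changed. The same test also called 14 genes that had not been changed in the simulation. A gene that passed may thus be a false call. Figures were drawn with matplotlib 3.10.9.

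The 10 genes, the lists, the pairs and the alternatives were chosen with earlier results of these data known. Named are the 10 genes, their pair partners, from each role list up to 4 further genes with the smallest p, the 5 genes most correlated with Atp2a1 and with Pvalb, and Otud1; other genes named were chosen after their values were seen. No list was given a set test. A few genes that this rule would name are not reported here.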

Additional observations from a re-analysis of the deposited data

How the results depend on the processing

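Stac3, Atp2a1 and Pvalb kept their direction and passed under all 19 alternatives tried, with log2 changes of 0.71 to 1.30, 0.36 to 0.96 and -1.23 to -0.63. Across the 6 settings that leave out 1 library, 8 of the 10 genes stayed higher and 1 lower. The changes were then 0.140 to 0.161 for Ryr1, 0.237 to 0.312 for Cacna1s, 0.455 to 0.506 for Casq1, 0.504 to 0.707 for Casq2, 0.427 to 0.571 for Sln and 0.446 to 0.498 for Jph1. The count over all genes was 2878 to 3171 there, against 3658. The numbers shared by replicates of the 2 groups did not pair them (correlation of deviations 0.0243, -0.00861 and 0.0178), and a replicate block gave 3255 genes and left the calls of all 10 genes as they were.

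Scaling to pan-fibre muscle genes gave 6940 calls, 451 higher and 6489 lower. Among the 10 genes 2 were then higher and 4 lower, and among the other role genes 12 and 50. Ryr1 (-0.299), Cacna1s (-0.161), Jph2 (-0.239), Stim1 (-0.213) and Cacna2d1 (-0.251) turned negative, Atp2a2 (-0.515) passed, and Casq1 (0.0350), Casq2 (0.168), Sln (0.0580) and Jph1 (0.0167) did not. After quantile normalization of FPKM, Ryr1 was at -0.036, Cacna1s at 0.123 did not pass and Atp2a2 at -0.218 did, so 2 of the 10 genes were lower. After median-ratio scaling Ryr1 was at 0.109 and did not pass. Atp2a2 turned positive on the FPKM scale, at 0.0812 with a pseudocount of 1, with or without the filter, 0.0842 with 0.1 and 0.083 with 0.5. There 9 other role genes were lower in each of these 4 settings. All genes lower numbered 912, 893 and 910 with the pseudocounts of 1, 0.1 and 0.5, 754 without the filter, and 2650 with DESeq2. Of the called genes 75.4% were higher with limma on FPKM and 52.1% with TMM. The deposited FPKM went with counts relative to all counts, mitochondrial ones included. For each of the 10 genes, the count divided by FPKM and total counts differed at most 1.02-fold between libraries. The TMM factors were 0.953, 0.910 and 1.004 in the WT-labelled libraries and 1.09, 1.04 and 1.02 in the KO-labelled ones. The cause of these shifts was not tested beyond the change of scale itself.

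All isoform pairs kept their sign. Over the settings that leave out 1 library the difference was 0.832 to 0.927 for Atp2a1 over Atp2a2 and -0.218 to -0.00815 for Casq1 over Casq2. The replicate block, as an exact sign-flip test of paired differences, gave 0.876 and -0.132, with 0.25 the smallest p that 3 pairs allow.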
